A study of Mus musculus with 12 samples.

Results

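Hepcidin and 9 further genes of liver iron handling were followed in primary mouse hepatocytes (mouse HPC) stimulated with TGF-β1. The 10 genes are Hamp, Tfr2, Tfrc, Slc40a1, Hfe, Slc11a2, Fth1, Trf, Cp and Tmprss6. They were found by symbol among the probe sets that the probe table of the platform pairs with exactly 1 symbol. Each of the 10 genes has 1 such probe set, so 10 probe sets of 21789 tested, or 10 genes of 19938, are described. The cells came from livers of male C57BL/6 mice with collagenase. They were seeded on collagen, grown for 24 h after a first change of medium, and given fresh medium again 1 h before stimulation. The 4 groups of 3 arrays each were untreated cells and cells kept for 20 min, 2 h and 4 h with recombinant human TGF-β1 at 1 ng/mL. RNA was hybridised to Affymetrix Mouse Gene 1.0 ST arrays, and levels are log2 signals. The study calls its replicates biological, while the labels name no age, animal or culture. P values measure the spread between these arrays that is left after time point and replicate number are fitted. The untreated cells were taken at a single time, so the effect of TGF-β1 and that of the time since the change of medium cannot be told apart. RNA came from whole wells, where fewer cells of a type and less RNA per cell cannot be told apart either.

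Hepatocytes are the main source of hepcidin, a small peptide hormone that binds the iron exporter ferroportin and sends it for degradation. Body iron is reported to the Hamp gene mainly through BMP ligands, hemojuvelin and the SMAD proteins 1, 5 and 8, with HFE and transferrin receptor 2 as sensors of iron-loaded transferrin and the protease TMPRSS6 as a brake that cleaves hemojuvelin. Inflammation acts on the same gene through IL-6 and STAT3. TGF-β1 belongs to the ligand family of the BMPs and signals chiefly through SMAD2 and SMAD3.

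The sequences upstream of hepcidin and its mouse paralog are shown, since the response of Hamp is the main question here. Both are the 250 bases before the start site (RefSeq, GRCm38.p6, minus strand, 5′ to 3′), at chr7:30944030-30944279 for Hamp and at chr7:30924182-30924431 for Hamp2. Capitals mark the letters of a searched motif.
Hamp: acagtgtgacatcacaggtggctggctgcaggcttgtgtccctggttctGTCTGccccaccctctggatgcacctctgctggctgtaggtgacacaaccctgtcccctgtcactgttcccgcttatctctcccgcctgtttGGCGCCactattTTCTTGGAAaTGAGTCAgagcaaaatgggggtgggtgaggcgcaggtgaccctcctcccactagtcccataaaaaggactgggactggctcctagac
Hamp2: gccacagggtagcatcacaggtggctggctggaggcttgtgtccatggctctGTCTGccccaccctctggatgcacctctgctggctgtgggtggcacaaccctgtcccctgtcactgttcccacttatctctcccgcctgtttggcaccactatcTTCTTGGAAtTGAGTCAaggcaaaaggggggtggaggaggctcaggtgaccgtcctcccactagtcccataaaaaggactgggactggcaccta

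In capitals, in this order along Hamp, are the SMAD box CAGAC (here read on the other strand, bases -201 to -197), the core of the BMP response element GGCGCC (-109 to -104), the STAT site, TTC and GAA with 3 bases between (-97 to -89), and the AP-1 site TGANTCA (-87 to -81). Positions are counted back from the start site. The 2 promoters shared 227 of 247 aligned bases, or 91.9%. The SMAD box, the STAT site and the AP-1 site were also present in Hamp2. The GGCGCC core was not: 5 of its 6 bases were shared and the difference was G4A, counted from the 5′ end of the core with the base of Hamp first. Over 32851 promoter windows of 300 bases, searched on both strands, 11.9% held GGCGCC, 49.6% CAGAC, 8.3% the STAT site, 7.81% the AP-1 site and 7.15% the E-box CACGTG. Windows with GGCGCC, the STAT site and the AP-1 site together numbered 12 (0.0365%), and Hamp was one of them. The search planned single motifs only, and these 3 are all found in Hamp. Its place among the 12 is therefore no separate finding, and the count was not tested against the single shares. Promoter windows were at hand for 6 of the 10 genes (Hamp, Tfr2, Tfrc, Hfe, Fth1 and Cp), 11 windows in all. Among these 6 genes GGCGCC was found in 2 (Hamp and Tfrc), CAGAC in 3, the STAT site in 1, the AP-1 site in 3 and the E-box in 0. A gene counts here if any of its windows holds the motif, while the percentages above are of single windows. The counts and the percentages are therefore not in the same unit. A match is a run of letters in the window and not a measured binding site.

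The arrays of replicate 1 stood apart from those of replicates 2 and 3 in several of the iron genes. Array medians lay between 6.82 and 6.93. Deviations from the group means correlated at 0.555 to 0.881 between arrays of the same replicate number and at -0.812 to 0.722 between arrays of different numbers, so the ranges overlapped. The numbers were used as pairs because each correlation within a number was above 0.1. An offset of replicate 1 alone could also meet this rule, so it does not test the pairing within replicates 2 and 3. The means of replicates 2 and 3 differed by more than 0.5 in 0.00459% of tested probe sets. The methods of the study report a strong batch effect among its mouse hepatocyte arrays, and which arrays made up the batches is not given in the sources used here. They also name 1 array of poor quality, replicate 1 at 1 h, which the study excluded. No 1 h array is among the 12 used here, and any link to the offset of replicate 1 was not tested. Tmprss6 was higher in replicate 1 than in the mean of replicates 2 and 3 by 0.98 on the log2 scale over the 4 time points, and Hamp by 0.75. Slc40a1 differed by -0.72 and Tfrc by -0.60 in the same comparison. In all, 4 of 10 genes differed by more than 0.5, against 10.7% of all tested probe sets. In 6 genes (Hamp, Tfrc, Slc40a1, Slc11a2, Fth1 and Tmprss6) the 4 arrays of replicate 1 lay entirely above or below the other 8. The share of all tested probe sets with such a separation was not counted, so this count has no background here. In 8 genes the replicate 1 difference exceeded the range of the 4 time means, as it did in 51% of all tested probe sets. Tfr2 was one of the exceptions, with 0.36 between replicates against a range of 0.40 over time. Some markers outside the 10 genes differed more: Alas2 was 8.26-fold higher in replicate 1, Pck1 6.67-fold and Dcn 4.42-fold. All tests below therefore carry the replicate number as a factor, and the values without replicate 1 are given where they matter.

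**Figure D1:**
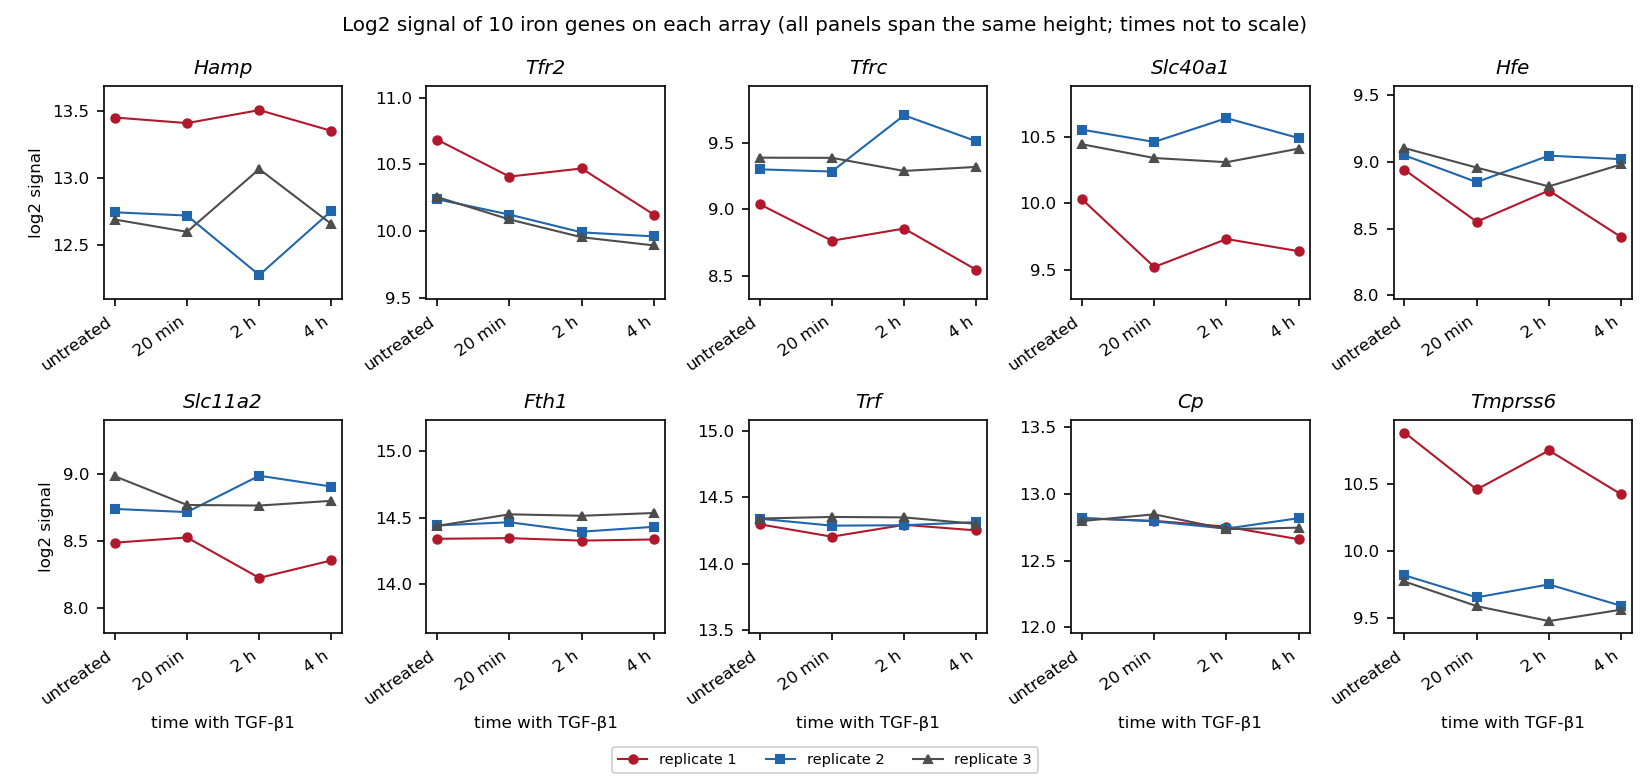
Log2 signal (vertical axis) of each of the 10 iron genes on the 12 arrays, by time with TGF-β1 (horizontal axis, steps not to scale), with 1 line per replicate number. All panels span the same height. Replicate 1 lies above the others in Hamp and Tmprss6 and below them in Slc40a1 and Tfrc, and Tfr2 is lower at 4 h than in untreated cells in all 3 replicates.

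Hamp encodes hepcidin itself (chr7:30942368-30944029, GRCm38.p6). Its log2 signal in replicates 1, 2 and 3 was 13.45, 12.74 and 12.69 in untreated cells, 13.41, 12.72 and 12.60 at 20 min, 13.51, 12.27 and 13.07 at 2 h, and 13.35, 12.75 and 12.65 at 4 h. The groups overlapped at every time, with the widest range at 2 h, and replicate 1 was highest throughout. At 4 h the change was -0.04 ± 0.14 (SE of the fit to all 12 arrays, n = 3 pairs). It was 0.972-fold with a 95% interval of 0.781 to 1.21 (limma, adjusted p = 0.93). At 20 min it was -0.05 ± 0.14 (limma, adjusted p = 0.94) and at 2 h -0.01 ± 0.14 (limma, adjusted p = 0.999). The moderated F test over the 3 times gave an adjusted p of 0.996 (limma). Here and below, each SE and interval comes from the fit to all 12 arrays, so the wide spread at 2 h enters those of Hamp. A 2-fold change in either direction lies outside the 95% interval at 4 h. The interval is not a limit of detection, since changes beyond its ends could also miss the threshold. Without replicate 1 the change at 4 h was -0.01 (limma, adjusted p = 0.989).

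The 2 h value of Hamp is an average over unlike replicates. Within the replicate numbers the difference between 2 h and untreated cells was 0.06, -0.47 and 0.38. At 4 h it was -0.10, 0.01 and -0.03, and at 20 min -0.04, -0.02 and -0.09. The spread between replicates was thus widest at 2 h. Hamp2, the mouse paralog of Hamp at chr7:30922372-30924181, was added after its values had been seen. Its signal was 10.34, 10.07 and 10.21 at 4 h, against 9.68, 10.36 and 10.13 in untreated cells, and the groups overlapped. Its change was 0.15 ± 0.23 at 4 h (limma, adjusted p = 0.823), and its differences at 2 h were -0.30, -0.47 and 0.51 in replicates 1, 2 and 3. The coding sequences of the 2 paralogs are closely related, and how far their probe sets cross-hybridise was not tested.

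Tfr2 was the only one of the 10 genes that fell past the threshold at 4 h, an adjusted p under 0.05. It encodes transferrin receptor 2, the form found mainly in hepatocytes and erythroid precursors, where it senses iron-loaded transferrin (chr5:137569822-137588081). Its log2 signal was 10.68, 10.24 and 10.25 in untreated cells, 10.41, 10.12 and 10.09 at 20 min, 10.47, 9.99 and 9.95 at 2 h, and 10.12, 9.96 and 9.89 at 4 h. All 3 arrays at 4 h lay below all 3 untreated arrays. Groups without overlap, in either direction, were found in 11% of all tested probe sets. The change at 4 h was -0.40 ± 0.07 (SE of the fit to all 12 arrays, n = 3 pairs). It was 0.757-fold with a 95% interval of 0.68 to 0.843 (limma, adjusted p = 0.0105). The count of 1 gene of 10 compares with 4.59% of all tested probe sets past the same threshold at 4 h, and with 3.02% past it and lower. At 20 min the change was -0.19 ± 0.07 and at 2 h -0.26 ± 0.07, lower in 3 of 3 replicates at both times (limma, adjusted p = 0.514 and 0.409). These changes share the untreated arrays. The difference between 4 h and 20 min was -0.21 ± 0.07 (limma, adjusted p = 0.274), and the F test over the time course gave an adjusted p of 0.0611 (limma).

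The call of Tfr2 depended on the paired fit. Without the replicate block the change was the same and its adjusted p was 0.778 (limma). Without replicate 2 the change was -0.46 (limma, adjusted p = 0.0765) and without replicate 3 it was -0.42 (limma, adjusted p = 0.162), both larger in size than with all arrays but not called. Without replicate 1, whose difference of -0.56 was the largest, the change was -0.32 and the call held (limma, adjusted p = 0.0309). Other lists moved beside it. The background for their counts at 4 h was 3.02% of all tested probe sets called lower by limma and 1.57% called higher. An unadjusted p under 0.05 was found in 17% of them (limma). Of 12 hepatocyte markers, 3 fell at 4 h (Tdo2, Asgr1 and Tat) and 0 rose, and the summed signal of the list was 131000 to 139000 at 4 h against 138000 to 144000 in untreated cells. Of 17 Kupffer cell and macrophage markers, 9 fell and 0 rose, with a summed signal of 9660 to 11600 at 4 h against 12500 to 14300 in untreated cells. Of 10 listed erythroid markers 3 were measured, and limma called 0 (1 at an unadjusted p under 0.05), with a summed signal of 336 to 1220 at 4 h against 361 to 1960 in untreated cells. The upper ends are replicate 1, where Alas2, the erythroid enzyme of heme synthesis, had 10.03 at 4 h against 10.81 in untreated cells, while the changes of Slc4a1 and Epb42 were 0.04 and -0.01. These sums are of unlogged signals and weigh the brightest genes most. Gene means of the macrophage list ran from 6.03 to 12.72 on the log2 scale in untreated cells. Cd14 and Cd68 were the brightest of this list and make up most of its sum. What part these lists had in the change of Tfr2 was not tested.

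Tmprss6, the hepcidin-lowering protease (chr15:78439667-78468648), was the nearest below the threshold. Its signal was 10.43, 9.59 and 9.56 at 4 h, against 10.89, 9.82 and 9.77 in untreated cells, lower in each of the 3 replicates. The ranges of the groups overlapped, with replicate 1 above both other replicates at each time. The change was -0.30 ± 0.08 at 4 h (limma, adjusted p = 0.0656) and -0.26 ± 0.08 already at 20 min (limma, adjusted p = 0.448). Without replicate 1 it was -0.22 at 4 h (limma, adjusted p = 0.192). With quantile normalization it passed the threshold at 4 h (limma, adjusted p = 0.0439), and also when only the brighter probe sets were tested (limma, adjusted p = 0.0481).

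Hfe encodes an MHC class I-like protein that pairs with the transferrin receptors (chr13:23702034-23710854). Its signal was 8.44, 9.02 and 8.98 at 4 h, against 8.94, 9.05 and 9.10 in untreated cells. The difference was carried mostly by replicate 1, at -0.51, against -0.03 and -0.12 in replicates 2 and 3. The change was -0.22 ± 0.10 (limma, adjusted p = 0.279), and -0.08 without replicate 1 (limma, adjusted p = 0.81).

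Slc40a1 encodes ferroportin, the exporter that hepcidin acts on (chr1:45908070-45926532). Its signal was 10.03, 10.55 and 10.44 in untreated cells, 9.52, 10.46 and 10.34 at 20 min, 9.73, 10.64 and 10.31 at 2 h, and 9.64, 10.49 and 10.41 at 4 h. Replicate 1 was the lowest at each time, and the only replicate that differed by more than 0.2 from its untreated array. At 20 min the differences were -0.51, -0.09 and -0.10, which gave a change of -0.23 ± 0.09 (limma, adjusted p = 0.51). At 4 h the change was -0.16 ± 0.09 (limma, adjusted p = 0.393). Without replicate 1 both were closer to 0, at -0.10 and -0.05 (limma, adjusted p = 0.999 and 0.887).

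The importers did not pass the threshold either. Tfrc, transferrin receptor 1, takes up transferrin iron in most cells (chr16:32608896-32632794). Its signal was 8.55, 9.51 and 9.32 at 4 h, against 9.04, 9.30 and 9.39 in untreated cells. The replicates moved apart, with differences of -0.49, 0.21 and -0.07 and a change of -0.12 ± 0.12 (limma, adjusted p = 0.706). Slc11a2 encodes DMT1, the transporter of divalent metals across the apical membrane and out of endosomes (chr15:100387898-100424209). Its signal was 8.35, 8.91 and 8.80 at 4 h, against 8.49, 8.74 and 8.99 in untreated cells, with overlapping groups and a change of -0.05 ± 0.10 (limma, adjusted p = 0.871).

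The storage and plasma proteins had the smallest spread. Fth1, the ferritin heavy chain with ferroxidase activity (chr19:9980600-9985111), gave 14.34, 14.43 and 14.54 at 4 h, against 14.34, 14.44 and 14.44 in untreated cells. Trf, the iron carrier transferrin (chr9:103208876-103230286), gave 14.25, 14.31 and 14.30 at 4 h, against 14.30, 14.34 and 14.34 in untreated cells. Cp, the plasma ferroxidase ceruloplasmin (chr3:19956933-20009750), gave 12.66, 12.82 and 12.75 at 4 h, against 12.82, 12.82 and 12.80 in untreated cells. None of these 3 genes differed by more than 0.2 in any replicate. The changes at 4 h were 0.03 ± 0.06 for Fth1, -0.04 ± 0.06 for Trf and -0.07 ± 0.06 for Cp (limma, adjusted p = 0.87, 0.81 and 0.624). Fold changes outside 0.937 to 1.11 for Fth1, 0.896 to 1.06 for Trf and 0.872 to 1.04 for Cp lie beyond the 95% intervals. The signals of Fth1 and Trf lay near the top of the scale, which ended at 15.2 on these arrays, and whether the scale is compressed there was not tested.

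**Figure D2:**
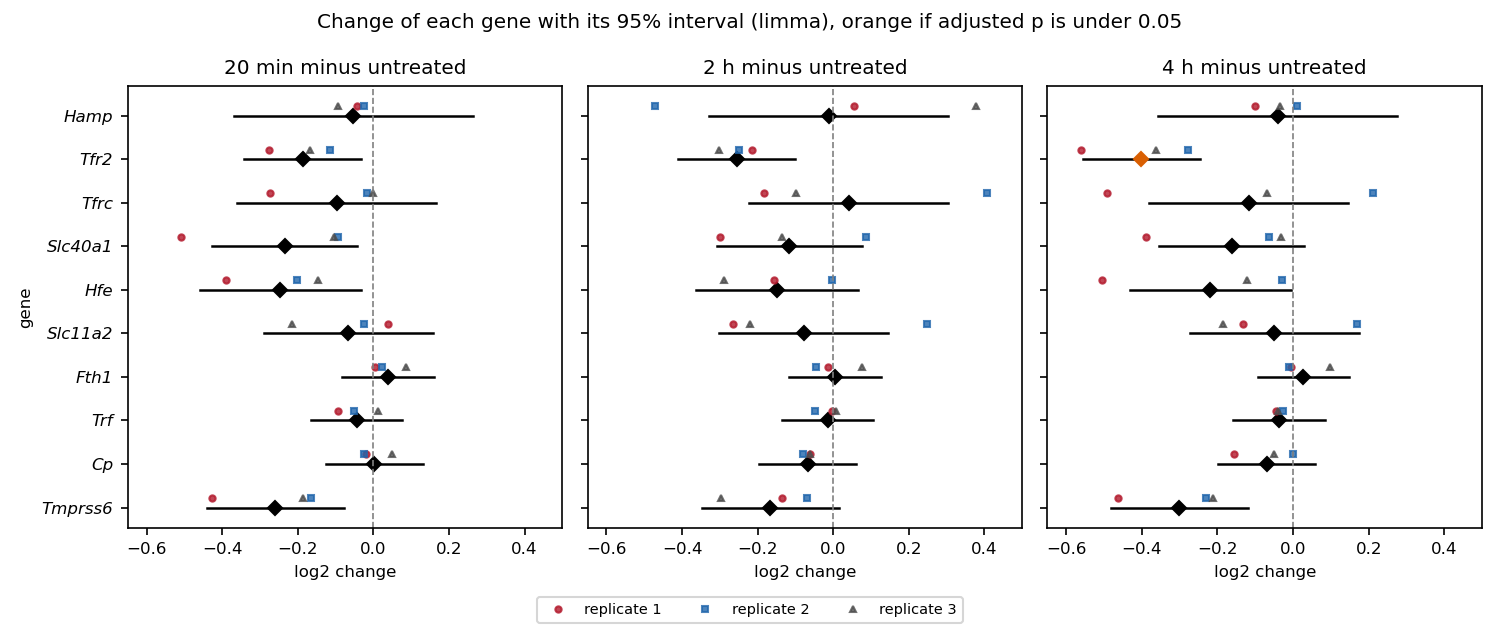
Log2 change of each iron gene (rows) over untreated cells at 20 min, 2 h and 4 h, with limma's estimate as a diamond, its 95% interval as a bar, and the 3 replicate differences as small points. Tfr2 at 4 h (orange) was the only change past an adjusted p of 0.05, at -0.40, and the 2 h points of Hamp spread from -0.47 to 0.38.

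At the earlier times none of the 10 genes passed the threshold. At 20 min 0 of 10 were called by limma, as were 0% of all tested probe sets, while 4 of 10 (Tfr2, Slc40a1, Hfe and Tmprss6) had an unadjusted p under 0.05, against 8.46% of all. All 4 were lower than in untreated cells, and replicate 1 had the largest decrease in each. At 2 h 0 of 10 were called, against 0% of all tested probe sets, and 1 (Tfr2) had an unadjusted p under 0.05, against 6.28%. At 4 h 3 genes (Tfr2, Tmprss6 and Hfe) had an unadjusted p under 0.05, against 17% of all. The estimates lay below 0 in 8 of 10 genes at 20 min and at 2 h and in 9 at 4 h, against 49.4%, 46.5% and 43% of all tested probe sets. The median change of the 10 genes at 4 h was -0.09, against 0.02 over all tested probe sets. Between 4 h and 20 min 0 of 10 were called by limma (0.62% of all, 0.436% higher and 0.184% lower) and 1, Tfr2, had an unadjusted p under 0.05 (9.78% of all). Between 4 h and 2 h 0 of 10 were called by limma (0.078% of all, 0.0505% higher and 0.0275% lower) and 0 had an unadjusted p under 0.05 (8.83% of all). The F test of limma over the time course called 0 of 10 (1.4% of all), and 2 (Tfr2 and Tmprss6) had an unadjusted p under 0.05 (12.1% of all).

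**Figure D3:**
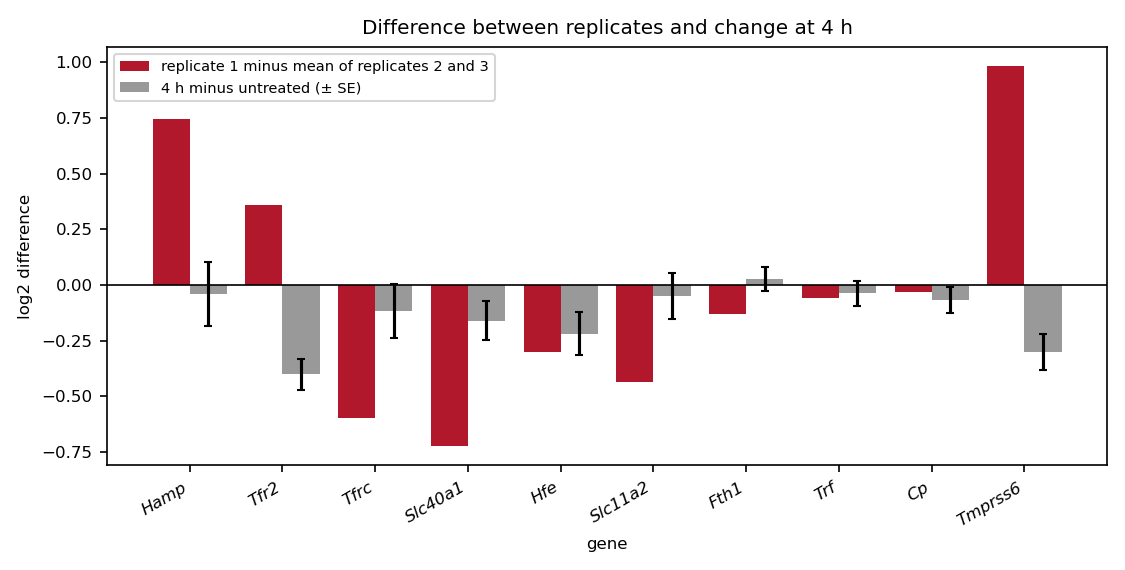
Log2 difference between replicate 1 and the mean of replicates 2 and 3 over all times (red) beside the change at 4 h over untreated cells (grey, with its standard error) for each iron gene. The replicate difference is the larger one in Tmprss6 (0.98 in size against 0.30) and Hamp (0.75 against 0.04), while both are of like size in Tfr2 (0.36 against 0.40).

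Several genes that feed into hepcidin passed the threshold at 4 h. Of 25 measured genes of the BMP, SMAD and IL-6 routes, 5 rose and 1 fell at 4 h, while 19 did not pass the threshold. The background for these counts was 1.57% of tested probe sets higher and 3.02% lower. The median change of the list was 0.01, against 0.02 over all tested probe sets. The 5 that rose were 2 receptors of the BMP route (Acvr1, a type I receptor, and Bmpr2, a type II receptor), the inhibitory Smad6, the BMP-responsive transcription factor Atoh8 and Il6st, the gp130 subunit through which IL-6 signals. The count was 7 without replicate 1, 1 without replicate 2, 0 without replicate 3 and 0 without the replicate block. Over all 21789 tested probe sets, 1000 were called at 4 h with all arrays and the block. In the other settings, in the same order, the calls over all probe sets numbered 985, 101, 32 and 31.

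Among the receptors, Acvr1 had 9.45, 9.72 and 9.58 at 4 h, against 9.05, 8.86 and 8.99 in untreated cells, with no overlap. Its change was 0.62 ± 0.10 (limma, adjusted p = 0.0083). Bmpr2 had 11.21, 11.62 and 11.40 at 4 h, against 10.91, 10.90 and 10.98 in untreated cells, again with no overlap. Its change was 0.48 ± 0.08 (limma, adjusted p = 0.00866). The ligands were at 8.51, 8.17 and 8.12 at 4 h against 8.51, 8.19 and 8.26 in untreated cells for Bmp6, which liver endothelial cells make in response to iron, and at 5.96, 5.67 and 5.66 against 5.91, 5.76 and 5.87 for Bmp2. Both groups overlapped in each. The change of Bmp6 was -0.06 ± 0.06 and that of Bmp2 -0.09 ± 0.11 (limma, adjusted p = 0.699 and 0.769). Hjv, the coreceptor hemojuvelin, had a change of 0.00 ± 0.26 that averaged 0.48, -0.14 and -0.35 in the 3 replicates (limma, adjusted p = 0.997).

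Targets and inhibitors of the SMAD route were higher in part. Smad6 had 7.21, 7.20 and 7.15 at 4 h, against 6.67, 6.60 and 6.53 in untreated cells, with no overlap. Its change was 0.59 ± 0.08 (limma, adjusted p = 0.00391). Atoh8 had 8.83, 9.44 and 9.34 at 4 h, against 8.32, 7.77 and 7.59 in untreated cells, with a change of 1.31 ± 0.28 (limma, adjusted p = 0.0222). Smad7, the inhibitory SMAD that TGF-β1 and BMPs both induce, did not pass the threshold over all probe sets. It had 8.53, 9.28 and 9.02 at 4 h, against 7.93, 7.78 and 7.80 in untreated cells, higher in 3 of 3 replicates by 0.60, 1.51 and 1.22 (limma, change 1.11 ± 0.34, adjusted p = 0.0993). Id1, a classical BMP target, had differences of -0.50, 0.72 and 0.44 and a change of 0.22 ± 0.24 (limma, adjusted p = 0.721).

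On the IL-6 route, Il6st had 11.52, 11.71 and 11.70 at 4 h, against 11.15, 11.38 and 11.43 in untreated cells, with a change of 0.33 ± 0.06 (limma, adjusted p = 0.0154). Stat3, the transcription factor of this route, fell, with 10.79, 10.63 and 10.44 at 4 h, against 11.16, 10.83 and 10.91 in untreated cells. Its change was -0.35 ± 0.07 (limma, adjusted p = 0.0222). The receptor chain Il6ra had a change of 0.20 ± 0.11 and the feedback inhibitor Socs3 one of -0.16 ± 0.14, neither past the threshold (limma, adjusted p = 0.408 and 0.659). Called genes thus went in both directions on the IL-6 route, while those of the BMP and SMAD route all rose. Between 4 h and 20 min 4 of the 25 genes rose (Acvr1, Bmpr2, Smad6 and Il6st), and the same 4 passed the time course test, against 0.436% of all tested probe sets higher between 4 h and 20 min and 1.4% called over the time course.

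**Figure D4:**
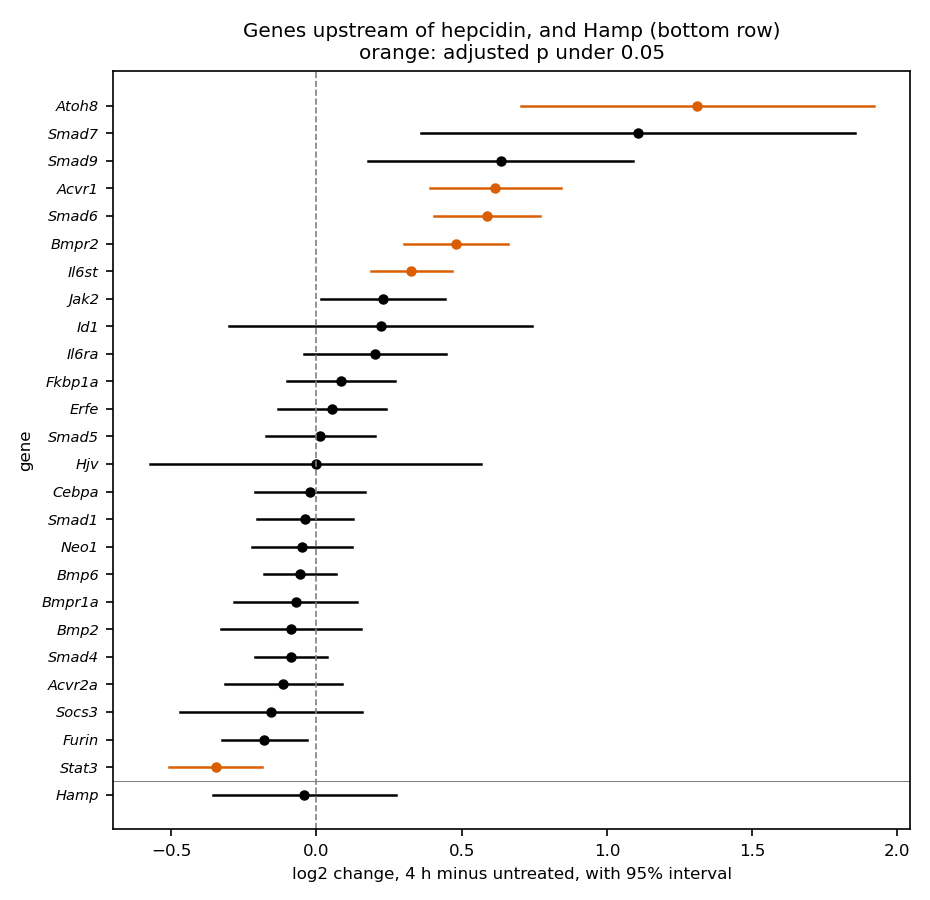
Log2 change at 4 h over untreated cells (horizontal axis, point with limma's 95% interval) of 25 genes of the BMP, SMAD and IL-6 routes, sorted by size, with Hamp at the bottom. Orange marks an adjusted p under 0.05: Atoh8 at 1.31, Acvr1 at 0.62, Smad6 at 0.59, Bmpr2 at 0.48, Il6st at 0.33 and Stat3 at -0.35. Hamp lies at -0.04.

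Further genes of iron and heme handling passed the threshold in small numbers. Of 22 genes of iron and heme transport, 2 fell and 0 rose at 4 h, against 3.02% of all tested probe sets lower and 1.57% higher. Steap4, a metalloreductase, had 10.69, 10.29 and 10.23 at 4 h, against 11.34, 11.02 and 10.98 in untreated cells, with a change of -0.71 ± 0.10 (limma, adjusted p = 0.0042). Cd163, the scavenger receptor for hemoglobin bound to haptoglobin, which is a marker of macrophages and also stands in the macrophage list above, had a change of -0.35 ± 0.06 (limma, adjusted p = 0.00952). Its signal was low, with 6.45, 6.46 and 6.33 at 4 h, against 6.83, 6.76 and 6.70 in untreated cells. All of these lie below 7.23, the median of the tested probe set means. The zinc and iron importer Slc39a14 had -0.23 ± 0.06 and the endosomal ferrireductase Steap3 0.10 ± 0.09, neither past the threshold (limma, adjusted p = 0.0722 and 0.652). The transport count was 4 without replicate 1, 1 without replicate 2, 0 without replicate 3 and 0 without the replicate block. Calls over all tested probe sets went from 1000 to 985, 101, 32 and 31 in these settings.

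Of 16 genes of iron storage and sensing, 1 fell and 0 rose at 4 h, a single call beside the same background of 3.02% and 1.57%. Bach1, a repressor of Hmox1 and the ferritin genes that heme releases from DNA, had 10.72, 10.51 and 10.64 at 4 h, against 11.09, 11.24 and 11.18 in untreated cells, with a change of -0.54 ± 0.09 (limma, adjusted p = 0.00952). Hmox1 itself, heme oxygenase 1, had -0.23 ± 0.14 (limma, adjusted p = 0.435), and the ferritin light chain Ftl1 0.01 ± 0.05 (limma, adjusted p = 0.939). The iron regulatory proteins and their partners had changes within 0.2 of 0, none past the threshold. Aco1 had 0.11 ± 0.08 and Ireb2, whose products bind iron responsive elements in mRNA, -0.17 ± 0.07 (limma, adjusted p = 0.548 and 0.236). Fbxl5, which targets iron regulatory proteins for degradation, had 0.17 ± 0.07, and Ncoa4, the receptor for ferritin autophagy, -0.01 ± 0.08 (limma, adjusted p = 0.22 and 0.965). The storage and sensing count was 2 without replicate 1 and 0 without replicate 2, without replicate 3 or without the replicate block. Beside it, the 1000 calls over all tested probe sets became 985, 101, 32 and 31 in these settings.

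Of 23 genes of mitochondrial iron, heme synthesis and iron-sulfur clusters, 1 rose and 0 fell at 4 h, a share near the 4.59% of all tested probe sets called. Slc25a37 encodes mitoferrin-1, an iron importer of the inner mitochondrial membrane. It had 9.62, 10.08 and 9.97 at 4 h, against 9.00, 9.52 and 9.66 in untreated cells, higher in each replicate by 0.62, 0.56 and 0.31, with overlapping ranges between the groups. Its change was 0.50 ± 0.07 (limma, adjusted p = 0.00378), and the time course test called it too (limma, adjusted p = 0.0149). The count was 1 without replicate 1 and 0 without replicate 2, without replicate 3 or without the replicate block. Over all tested probe sets the 1000 calls became 985, 101, 32 and 31 in these settings.

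The replicates also spread widely at 2 h in 3 SMAD-route genes, which were chosen after the values were seen. In replicates 1, 2 and 3 the difference between 2 h and untreated cells was 0.76, 0.17 and 2.19 for Smad7. It was 0.06, 0.03 and 1.03 for Id1. For Atoh8 it was -0.26, -0.24 and 1.16. Replicate 3 had the highest value in all of these genes and in Hamp (0.38) and Hamp2 (0.51). Replicate 1 was above replicate 2 in Hamp, Hamp2 and Smad7, just above it in Id1 and just below it in Atoh8. The sign of replicate 2 was not shared, since it was below 0 in Hamp, Hamp2 and Atoh8 and above 0 in Smad7 and Id1. The pattern was not particular to this route: the hepatocyte marker Pck1, a gluconeogenic enzyme, had 0.04, -0.62 and 0.92. None of the 3 SMAD-route genes passed the threshold at 2 h, with adjusted p = 0.521 for Smad7, 0.928 for Id1 and 0.988 for Atoh8 (limma).

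**Figure D5:**
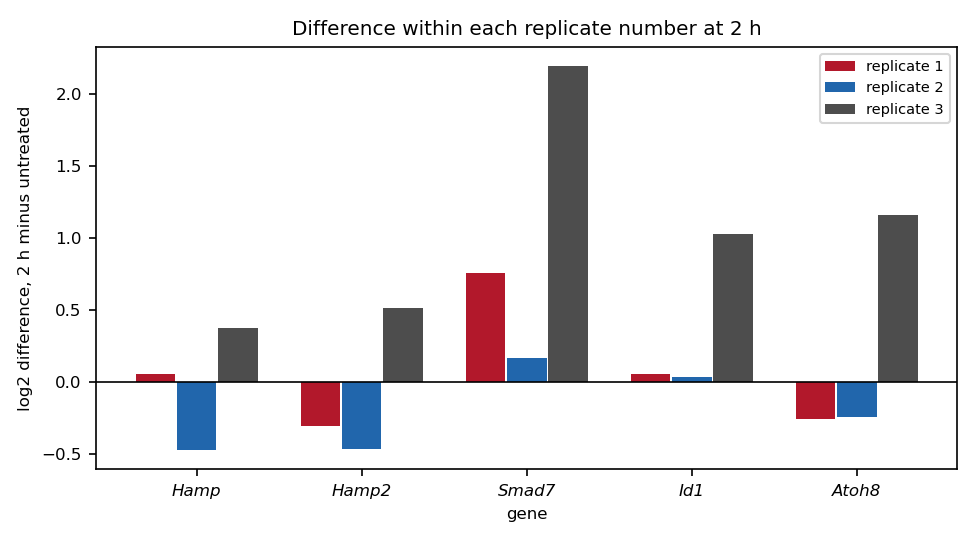
Log2 difference between 2 h with TGF-β1 and untreated cells of the same replicate number (vertical axis, 1 bar per replicate) for Hamp, Hamp2, Smad7, Id1 and Atoh8. Replicate 3 has the highest bar in each gene, from 0.38 in Hamp to 2.19 in Smad7, while replicate 2 is at -0.47 in Hamp and Hamp2.

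After each replicate mean was taken off, the probe sets most like Hamp over the 12 arrays were those of Zfp503 (Pearson r = 0.85), Hbegf (0.84), D430042O09Rik (0.82), Hnrnpk (0.80) and A530032D15Rik (0.77), among 10894 at or above the median level. The most opposite were Tbc1d9b (-0.90), Crcp (-0.87), Myl6 (-0.87), Slc35e4 (-0.87) and Ext2 (-0.87). In this comparison 11.7% of the probe sets had an r past 0.5 in size. All points share their arrays, the residual spread of Hamp lies mainly in the 2 h arrays, and the r values describe these 12 arrays only.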

How the data were processed

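Log2 signals of 12 arrays of mouse HPC were taken as deposited. The authors made these log2 values with RMA in Affymetrix Power Tools, per the labels (versions not given), which corrects background, normalizes quantiles and summarizes probe sets. The methods of the study name FARMS, and ComBat against a batch effect in these arrays, for its own analysis. No batch adjustment beyond the replicate factor was added here. Of 35556 probe sets, 21789 with exactly 1 symbol in the platform's probe table were tested, and 1621 with several symbols and 12146 not listed were left out. Where a gene outside the 10 had more than 1 probe set, the brightest one stands for it.

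Linear models were fitted with limma 3.58.1 in R 4.3.3 with time and replicate number as factors (6 residual and 5.39 prior degrees of freedom). P values were adjusted by Benjamini-Hochberg over all tested probe sets, with a call at an adjusted p under 0.05. A moderated F test over the 3 times stands in for betr. Replicate numbers were used as pairs because deviations from group means correlated at 0.555 to 0.881 between arrays of the same number (each above 0.1). Between different numbers they correlated at -0.812 to 0.722. An offset of replicate 1 alone could also meet this rule. Promoters are RefSeq sequences of GRCm38.p6, aligned with Biopython 1.88.

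The 10 genes and the gene lists were chosen with earlier results of these data known. Named beside the 10 were up to 6 called members of each list by adjusted p at 4 h, a fixed set of regulators whether called or not, and the 5 probe sets most like and 5 most unlike Hamp. Alternatives covered the block, normalization, filters, priors, weights and left-out arrays. Precision is limited by the 12 arrays.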

Additional observations from a re-analysis of the deposited data

How the results depend on the processing

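The 10 iron genes gave 60 results (5 comparisons and the time course each), with 1550 values under other settings, of which 1453 kept direction and side of the threshold, 6 lost a call, 8 gained one and 83 changed sign, 72 of these with arrays left out. All sign changes were of values that passed no threshold; their cause was not tested. The call of Tfr2 at 4 h was lost without the replicate block (adjusted p = 0.778), with the block as a random effect (0.0952), with only the compared groups (0.0659), at the stricter threshold of an adjusted p under 0.01 and 2-fold (0.0105), and without replicate 2 or 3. Its change stayed between -0.46 and -0.32 with arrays left out. Its time course test passed with brighter probe sets (0.0486), quantile normalization (0.0469), a trended prior (0.0432) and array weights (0.0167), and without replicate 1 at 2 h (0.0481). Tmprss6 at 4 h passed with brighter probe sets, quantile normalization and without replicate 3 at 2 h (0.0453).

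Of the 10 genes, 1 was called at 4 h. The count was 0 without the replicate block, with the random block, with only the compared groups and at the stricter threshold, 2 with brighter probe sets and with quantile normalization, and 0 to 2 with arrays left out. Over all probe sets, 1000 were called at 4 h against untreated, 31 without the replicate block, 225 with the random block, 371 with all probe sets, 352 with only the compared groups, 1799 with array weights, 21 at the stricter threshold and 32 to 1187 with arrays left out. For 4 h against 20 min the count of 135 became 2 without the block, 40 with the random block, 12 with all probe sets, 83 with only the compared groups, 741 with weights, 8 at the stricter threshold and 0 to 255 with arrays left out. For 4 h against 2 h the count of 17 became 0 without the block, with the random block, with all probe sets and at the stricter threshold, 4 with only the compared groups, 46 with brighter probe sets, 7 with quantile normalization, 101 with the trended prior, 193 with weights and 0 to 60 with arrays left out. The count of 0 at 20 min became 4 with the trended prior and 0 to 10 with arrays left out, and that of 0 at 2 h became 9 and 0 to 43. The time course count of 305 became 0 without the block, 56 with the random block, 1 with all probe sets, 480 with the trended prior, 1081 with weights, 11 at the stricter threshold and 0 to 423 with arrays left out.

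For the lists, settings added after the data were seen gave the counts below at 4 h. Over all tested probe sets the 1000 calls became 31 without the block and 32 to 985 with a replicate left out. The BMP, SMAD and IL-6 list had 6 calls, 0 without the block and 0 to 7 with a replicate left out. Iron and heme transport had 2, then 0 and 0 to 4. Storage and sensing had 1, then 0 and 0 to 2. Mitochondrial genes had 1, then 0 and 0 to 1.

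Signs changed with quantile normalization for Slc11a2 (-0.0002) and Fth1 (0.0418) at 4 h against 20 min and Trf at 2 h (0.0133), and with median centring for Cp at 20 min (-0.0045). With array weights they changed for Hamp at 2 h (0.0712), for Hamp (-0.0087), Tfrc (0.0307) and Trf (-0.0095) at 4 h against 20 min, and for Slc40a1 (0.0011), Hfe (0.0033) and Cp (0.0058) at 4 h against 2 h. With arrays left out, changes that crossed 0 spanned the following ranges. At 20 min against untreated they were Hamp -0.13 to 0.033, Tfrc -0.23 to 0.0321, Slc11a2 -0.16 to 0.0077 and Cp -0.022 to 0.025. At 2 h against untreated they were Hamp -0.21 to 0.23, Tfrc -0.14 to 0.17, Slc11a2 -0.24 to 0.0184, Fth1 -0.0302 to 0.0313 and Trf -0.0298 to 0.0028. At 4 h against untreated they were Hamp -0.14 to 0.0219, Tfrc -0.28 to 0.0709, Slc11a2 -0.16 to 0.0211 and Fth1 -0.0077 to 0.046. For 4 h against 20 min they were Hamp -0.0861 to 0.0938, Tfrc -0.14 to 0.10, Hfe -0.0457 to 0.14, Slc11a2 -0.0706 to 0.11, Trf -0.0175 to 0.0368 and Tmprss6 -0.10 to 0.0164. For 4 h against 2 h they were Hamp -0.28 to 0.17, Slc40a1 -0.12 to 0.0145, Hfe -0.19 to 0.0696, Slc11a2 -0.0682 to 0.15 and Cp -0.0423 to 0.045. Over all probe sets the median change moved by under 0.02 with either rescaling.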
